A study of Mus musculus with 10 samples.

Results

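Saa4, Itih4, Steap4, Fgl1 and Fetub are grouped here as acute phase and hepatokine genes. Hepatokines are the secreted proteins through which the liver acts on other tissues, and Steap4 does not encode one. A probe set was counted as a member when the platform annotation gave it exactly 1 of these 5 symbols. This found 5 probe sets, 1 for each gene, among 12411 tested probe sets, of which 10581 carried 1 symbol and stood for 7542 genes. The 5 genes were picked with earlier results of these arrays in view. Saa4, Itih4 and Steap4 came from the comparison of the TgSREBP-1a pool with wild type, Steap4 also from the TgSREBP-2 pool against wild type, Fetub from the comparison of the 2 transgenic pools, and Fgl1 from the comparison of the wild type pools. For these comparisons their values are therefore given as descriptions, without a test, and only the Scap-/- comparison is tested for them. The wild type arrays of the Scap study, through which Fgl1 was picked, also serve in that comparison. The Scap-/- test of Fgl1 is therefore not independent of the choice.

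The acute phase response is the change in liver secretion that follows infection or injury, driven in hepatocytes mainly by interleukin-6, interleukin-1 and tumour necrosis factor through the transcription factors STAT3, C/EBP and NF-kB. Saa4 encodes a serum amyloid A protein carried on high-density lipoprotein, which in humans is made constitutively rather than on demand. Itih4 encodes a heavy chain of the inter-alpha-trypsin inhibitor family, an acute phase protein induced by interleukin-6. Steap4 is not secreted: it encodes a membrane metalloreductase of iron and copper that is induced by inflammatory cytokines. Fgl1 encodes fibrinogen-like protein 1, also called hepassocin, a hepatocyte mitogen and a ligand of the T-cell receptor LAG-3. Fetub encodes fetuin-B, a protease inhibitor of the cystatin superfamily that keeps the egg coat open to sperm and has been linked to glucose intolerance in fatty liver.

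The data were log2 expression values of mouse liver on Affymetrix MG_U74Bv2 arrays, with 5 groups of 2 arrays. The groups were TgSREBP-1a mice, which carry a transgene for the nuclear, active part of human SREBP-1a, TgSREBP-2 mice, which carry the same for human SREBP-2, and their wild type littermates, all male, aged 12 to 16 weeks and kept for 2 weeks on a diet high in protein and low in carbohydrate, which raises the transgene product. The other groups were Scap-/-;MX1-Cre mice, lacking in liver the escort protein SCAP that SREBP precursors need for activation, and wild type mice, all male, aged 10 to 12 weeks and fed Teklad chow. Both groups of the Scap study had received 4 injections of polyinosinic-polycytidylic acid, the last of them 14 days before the liver was taken. That agent is a mimic of viral RNA that induces interferon, so the wild type mice of the Scap study are no untreated baseline for inflammatory genes. The MX1 promoter is interferon-inducible and not specific to hepatocytes, and the labels do not name the promoter of either transgene. RNA of 5 livers per group was combined into 1 pool of 20 µg and hybridised to 2 arrays, so every error and p-value given here measures hybridisation spread and not the spread between mice. In pooled tissue, fewer cells of a type and less RNA per cell cannot be told apart.

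Some arrays stood closer to another pool than to their own duplicate. All 4 arrays of the Scap study had their highest correlation over all probe sets with an array of the other genotype, and the second TgSREBP-2 array had it with the second wild type array (r = 0.9915, against 0.9891 with its own duplicate). The brighter Scap probe set read 7.94 and 7.75 on the Scap-/- arrays, against 9.24 and 8.89 on their wild type arrays. Of 20 hepatocyte markers, 4 were measured (Apoa1, C8a, C8b and Tdo2), and all 10 arrays had a mean log2 level of them between 8.65 and 10.83. A probe set was called at a Benjamini-Hochberg adjusted p under 0.05 (limma, over all 12411 probe sets) with a change of at least 1.5-fold.

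Because Saa4, Itih4, Steap4 and Fetub shared a lower level in TgSREBP-1a liver, the 250 bases before their annotated starts are shown, in the RefSeq sequence of GRCm38.p6, which held starts for 4 of the 5 genes. They lie at chr7:46732604-46732853 (minus strand), chr14:30886226-30886475 (plus strand), chr5:7960222-7960471 (plus strand) and chr16:22918132-22918381 (plus strand, the first of 2 annotated Fetub starts). Capitals mark matches to the motifs named after the sequences, on either strand, and each sequence is written 5′ to 3′ on the strand of its gene.
Saa4: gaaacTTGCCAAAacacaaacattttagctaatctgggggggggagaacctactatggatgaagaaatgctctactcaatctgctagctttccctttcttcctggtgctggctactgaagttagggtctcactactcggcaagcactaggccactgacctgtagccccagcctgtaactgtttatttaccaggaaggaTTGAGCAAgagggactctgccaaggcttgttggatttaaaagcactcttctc
Itih4: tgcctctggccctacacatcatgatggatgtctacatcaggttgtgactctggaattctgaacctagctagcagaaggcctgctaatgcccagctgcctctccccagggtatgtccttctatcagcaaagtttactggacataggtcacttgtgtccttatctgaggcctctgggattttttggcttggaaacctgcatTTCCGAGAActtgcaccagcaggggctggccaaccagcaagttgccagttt
Steap4: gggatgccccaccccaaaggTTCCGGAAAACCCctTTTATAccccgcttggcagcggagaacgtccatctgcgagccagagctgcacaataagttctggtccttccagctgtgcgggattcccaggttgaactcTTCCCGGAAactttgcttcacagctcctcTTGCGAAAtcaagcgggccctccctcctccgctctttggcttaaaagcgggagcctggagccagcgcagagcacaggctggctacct
Fetub: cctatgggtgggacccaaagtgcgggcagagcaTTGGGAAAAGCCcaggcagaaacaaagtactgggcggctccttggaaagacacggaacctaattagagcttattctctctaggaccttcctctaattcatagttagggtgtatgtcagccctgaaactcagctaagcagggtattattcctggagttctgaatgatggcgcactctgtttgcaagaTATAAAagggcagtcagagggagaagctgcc

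In all, 6 kinds of motif were searched on both strands in these windows and in all 32851 RefSeq windows of the same length. A C/EBP-type motif (TTNNGNAA) occurred in 36.8% of all windows, and it was found in the Saa4 window 52 and 245 bases before the start, in Steap4 at 87 and 230 bases and in Fetub at 217 bases. A STAT-type motif (TTCNNNGAA) occurred in 7.02% of all windows, and it was found in Itih4, as TTCCGAGAA 51 bases before the start, and in Steap4, as TTCCCGGAA 116 bases before it. An NF-kB-type motif (GGNNTTTCC) occurred in 4.93% of all windows. It was found on the opposite strand in Steap4 at 226 bases and in Fetub at 214 bases, each time overlapping a C/EBP-type match. A TATA box (TATAAA) occurred in 12.4% of all windows, and stood 31 bases before the Fetub start on the gene strand and, on the opposite strand, 215 bases before the Steap4 start. The sterol regulatory element motif TCACNCCAC (1.05% of all windows) and the HNF1-type motif GTTAAT (6.43%) had no match in the 4 windows printed. The second Fetub start had 1 match, a C/EBP-type motif 233 bases before it. These matches describe letters, and nothing was measured here on binding at them.

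In TgSREBP-1a liver all 5 genes were lower than in wild type littermates. Saa4 stood apart from the rest by the size of the difference, and Steap4 had the smallest one. All 5 were at least 1.5-fold lower, as were 1.15% of all probe sets, and all 5 had arrays that did not overlap with wild type in the lower direction, as had 23.4% of all probe sets. Saa4, Itih4 and Steap4 were picked from this comparison, and Fetub and Fgl1 from others that share the TgSREBP-1a or the wild type arrays, so nothing is read from these shares.

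Saa4 read 5.83 and 5.86 on the TgSREBP-1a arrays, against 8.76 and 8.40 on the wild type arrays. The TgSREBP-1a level was close to the median of all probe sets, which lay between 5.643 and 5.662 on these arrays, whereas both wild type arrays were far above it. The difference was -2.74 ± 0.16 on the log2 scale (limma standard error, n = 2 arrays each), a level 6.67-fold lower, and the sixth lowest difference of the 12411 probe sets. The values come with no detection call, so the fold and the rank may understate the difference if the TgSREBP-1a signal was at background. It lay between -2.92 and -2.55 with any 1 of the 4 arrays left out.

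Itih4 read 10.65 and 10.41 in TgSREBP-1a, against 12.19 and 11.89 in wild type. The groups did not overlap, and the difference was -1.51 ± 0.26, or 2.85-fold lower. The name of its probe set has a suffix (_f_at) that Affymetrix gave to sets whose probes may match several related sequences, so a share of its signal from related transcripts cannot be separated.

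Fetub read 8.50 and 8.32 in TgSREBP-1a, against 9.99 and 9.71 in wild type. The difference was -1.44 ± 0.13, or 2.72-fold lower, and it ranged from -1.59 to -1.30 with 1 array left out. Fgl1 read 8.84 and 8.66 in TgSREBP-1a, against 9.90 and 9.41 in wild type. The difference was -0.90 ± 0.22, or 1.87-fold lower, and with 1 array left out it lay between -1.15 and -0.66. Steap4 read 9.93 and 9.54 in TgSREBP-1a, against 10.55 and 10.48 in wild type. The difference was -0.78 ± 0.15, or 1.72-fold lower (-0.98 to -0.58 with 1 array left out), with the TgSREBP-1a duplicates 0.40 apart and the wild type duplicates 0.07 apart. The median of the 5 differences was -1.44, beside -0.02 over all probe sets.

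**Figure D1:**
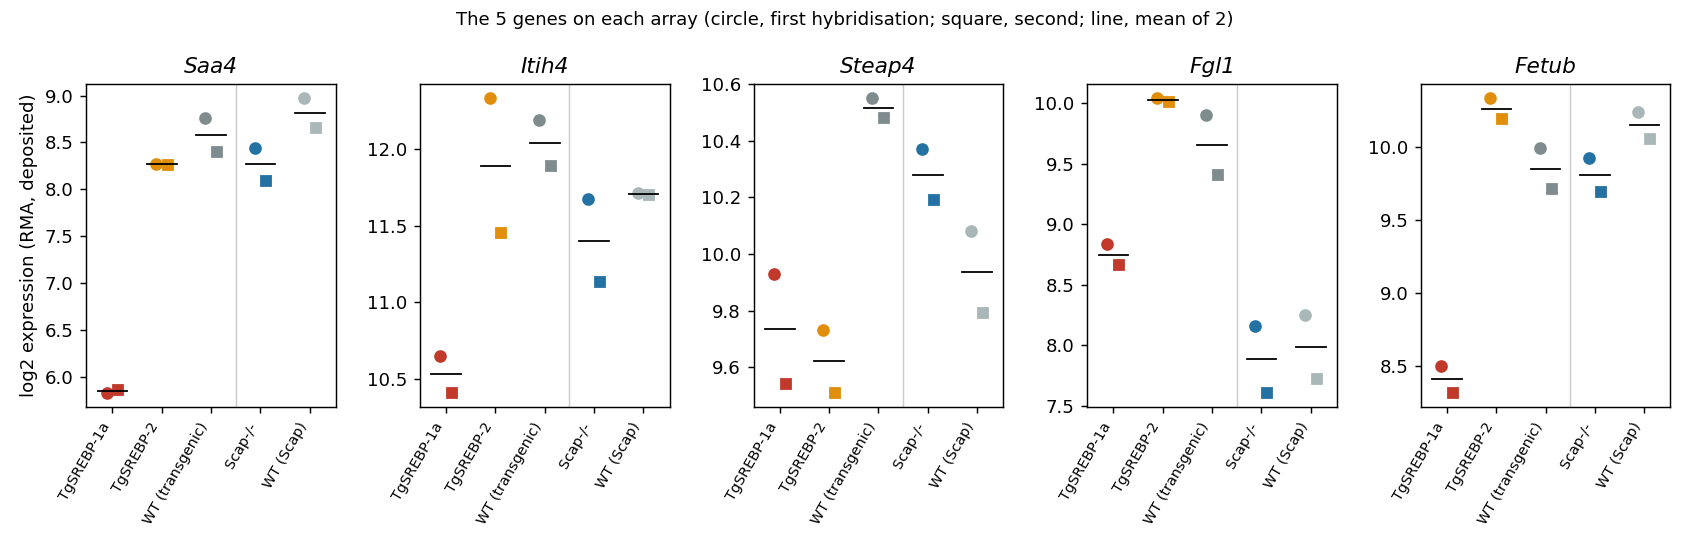
Log2 expression of the 5 genes on each of the 10 arrays, by group, with the first hybridisation of a pool as a circle, the second as a square and their mean as a line. TgSREBP-1a was the lowest group for Saa4 (5.84), Itih4 (10.53) and Fetub (8.41), while for Fgl1 both groups of the Scap study lay lower still.

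Some markers of cell types also differed in the TgSREBP-1a pool. The 4 measured hepatocyte markers had a mean log2 level of 8.65 to 8.84 in TgSREBP-1a, against 10.16 to 10.49 in wild type. Of these, 2 fell, the complement genes C8a (-2.60) and C8b (-2.22), beside 0.814% of all probe sets called lower. Apoa1 (-0.42) and Tdo2 (-1.07) did not pass. C8a was also the gene closest to Saa4 and Fetub over the 10 arrays (Pearson's r = 0.985 and 0.968). The 3 measured pancreatic acinar markers of 15 listed averaged 6.07 to 6.11 in TgSREBP-1a, against 8.84 to 9.17 in wild type. Cpb1 and Cela3b among them fell, and Ctrc (-0.22) did not pass. The 6 measured of 15 endothelial markers averaged 7.23 to 7.33 in TgSREBP-1a, against 6.79 to 6.86 in wild type. Lyve1 (0.64) and Heg1 (1.26) among them rose, beside 1.36% of all probe sets called higher. Ptprb (0.50), Eng (0.22), Stab2 (0.10) and Stab1 (0.01) did not pass. The Lyve1 call was lost without the first TgSREBP-1a array or either wild type array, and the Heg1 call without the first TgSREBP-1a array. Of 15 Kupffer cell markers 2 were measured, and they averaged 4.64 to 4.78 in TgSREBP-1a, against 4.22 to 4.23 in wild type, with Cd163 risen and Timd4 at a difference of 0.07. The Cd163 call was lost without any 1 of the 4 arrays. In wild type, Lyve1 (4.78 and 4.75), Cd163 (4.82 and 4.88) and Timd4 (3.61 and 3.58) read below the array medians (5.646 and 5.652). The calls of Lyve1 and Cd163 were also not kept in a fit of brighter probe sets only, which leaves dim ones out. The part of these shifts in the lower levels of the 5 genes was not tested. The lists of stellate cell, cholangiocyte, lymphocyte, adipocyte and erythroid markers, with 1 or 2 measured genes each, had 0 calls in TgSREBP-1a, and no neutrophil marker of 10 listed had a probe set with 1 symbol.

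In TgSREBP-2 liver, Steap4 was lower than in wild type littermates and the other 4 genes lay nearer to their wild type levels. Steap4 was at least 1.5-fold lower, the 1 member of 5 with such a difference, as were 0.54% of all probe sets. Limma called 0.5% of all probe sets in this comparison. Steap4 read 9.73 and 9.51 in TgSREBP-2, against 10.55 and 10.48 in wild type, with no overlap. The difference was -0.89 ± 0.15, or 1.86-fold lower, the 18th lowest of all probe sets, and it lay between -1.0 and -0.78 with 1 array left out. This comparison shares its wild type arrays with that of TgSREBP-1a, so the lower Steap4 level in both transgenic pools rests on the same 2 wild type arrays.

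Saa4 read 8.27 and 8.26 in TgSREBP-2, against 8.76 and 8.40 in wild type, a difference of -0.32 ± 0.16. Fetub read 10.33 and 10.19 in TgSREBP-2, against 9.99 and 9.71 in wild type, a difference of 0.40 ± 0.13. Fgl1 read 10.04 and 10.01 in TgSREBP-2, against 9.90 and 9.41 in wild type, a difference of 0.37 ± 0.22. These differences moved with the wild type array left out, from -0.50 to -0.13 for Saa4, 0.26 to 0.55 for Fetub and 0.13 to 0.62 for Fgl1. For Fetub and Fgl1 both TgSREBP-2 arrays were above both wild type arrays, and for Saa4 both were below. Higher without overlap were 2 of 5 genes and 15.6% of all probe sets. Lower without overlap were 2 of 5 genes, Saa4 and Steap4, and 24.4% of all probe sets.

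Itih4 read 12.33 and 11.45 in TgSREBP-2, against 12.19 and 11.89 in wild type. The duplicates of the TgSREBP-2 pool were 0.88 apart, the widest of any duplicates of the 5 genes, and enclosed both wild type arrays. The difference was -0.15 ± 0.26, and it became -0.59 when the first array of the TgSREBP-2 pool was left out and 0.29 when the second was, which is the array that correlated best with a wild type one. Without this second array the differences of Saa4, Steap4, Fgl1 and Fetub were -0.31, -0.78, 0.39 and 0.48. The acinar markers averaged 9.75 to 10.10 in TgSREBP-2, against 8.84 to 9.17 in wild type. Ctrc among them rose, and Cpb1 and Cela3b (0.63 each) did not pass. The hepatocyte markers averaged 9.80 to 10.09 in TgSREBP-2, against 10.16 to 10.49 in wild type, with 0 of 4 called. The erythroid marker Tfrc read 6.14 and 6.46 in TgSREBP-2, against 4.83 and 4.77 in wild type, and rose 2.83-fold (limma adjusted p = 0.0163). That call was lost without any 1 of the 4 arrays, and in the fit of brighter probe sets only. The part of these markers in the values of the 5 genes was not tested.

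Set directly against each other, TgSREBP-1a stood below TgSREBP-2 for Saa4, Itih4, Fgl1 and Fetub, all of them at least 1.5-fold lower without overlap of arrays. Of all probe sets 1.11% were at least 1.5-fold lower in TgSREBP-1a and 20.7% were lower without overlap, and limma called 1.86% in either direction. Saa4 differed by -2.42 ± 0.16 (5.35-fold lower in TgSREBP-1a), Fetub by -1.85 ± 0.13 (3.6-fold lower), Itih4 by -1.36 ± 0.26 (2.57-fold lower) and Fgl1 by -1.28 ± 0.22 (2.42-fold lower). For Itih4 the difference lay between -1.80 and -0.92 with 1 array left out, and was -1.80 without the second TgSREBP-2 array. Steap4 differed by 0.11 ± 0.15 with overlapping arrays, and the 95% interval of its difference ran from -0.22 to 0.45. The acinar markers averaged 6.07 to 6.11 in TgSREBP-1a, against 9.75 to 10.10 in TgSREBP-2, with Cpb1, Cela3b and Ctrc lower by the test. The hepatocyte markers averaged 8.65 to 8.84 in TgSREBP-1a, against 9.80 to 10.09 in TgSREBP-2. C8a (-2.58) and C8b (-1.70) among them were lower by the test, and Apoa1 (0.15) and Tdo2 (-0.65) did not pass. The endothelial markers averaged 7.23 to 7.33 in TgSREBP-1a, against 6.54 to 6.67 in TgSREBP-2, with Lyve1, Ptprb and Heg1 higher by the test. Stab1 (0.04), Stab2 (0.16) and Eng (0.33) did not pass. The Kupffer cell markers averaged 4.64 to 4.78 in TgSREBP-1a, against 4.03 to 4.27 in TgSREBP-2, with Cd163 higher and Timd4 (-0.09) not passing. The erythroid marker Tfrc was lower in TgSREBP-1a by the test, at 5.03 and 4.81, against 6.14 and 6.46 in TgSREBP-2. With 1 array left out, the calls of Lyve1, Heg1 and Cd163 were kept in 4 of 4 fits, and those of Ptprb and Tfrc in 1 of 4. The calls of Lyve1, Cd163 and Tfrc were not kept in the fit of brighter probe sets only. The part of these markers in the differences was not tested.

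**Figure D2:**
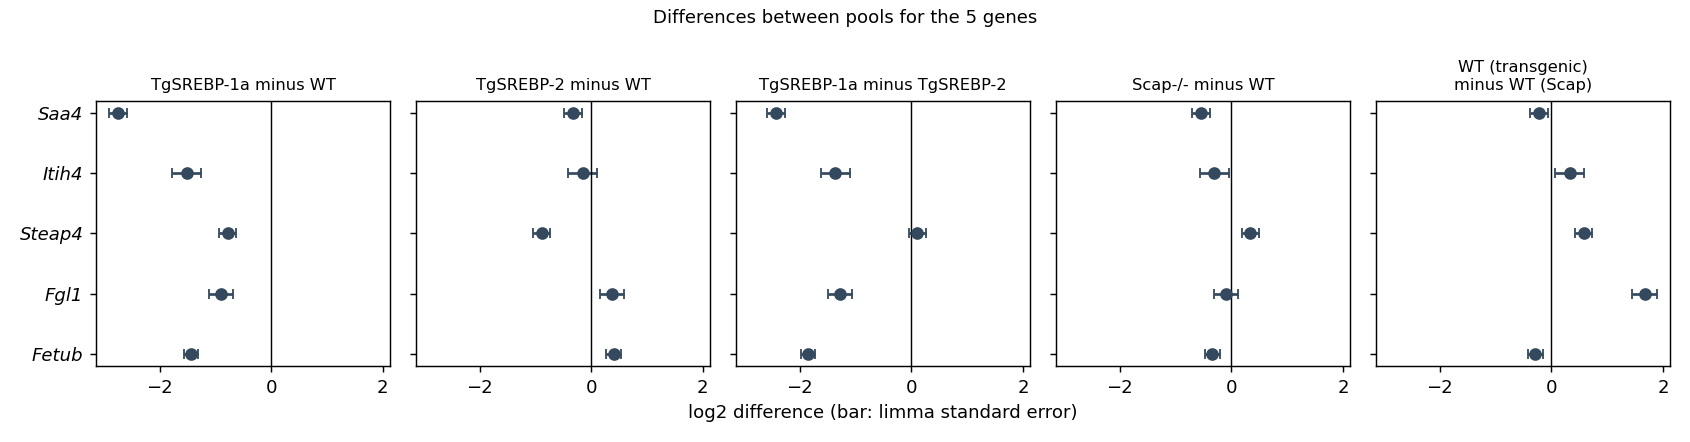
Log2 differences of the 5 genes (rows) in the 5 comparisons (panels), with limma standard errors as bars and n = 2 arrays per group. All 5 genes lie left of 0 for TgSREBP-1a minus wild type, Steap4 lies left of 0 at -0.89 for TgSREBP-2 minus wild type, and Fgl1 lies right of 0 at 1.67 between the wild type pools.

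Whether loss of SREBP activation in the liver moved the same genes was tested in the Scap-/- comparison. None of the 5 genes passed, beside 0.274% of all probe sets called there in either direction (34 of 12411, with 32 or 0.258% lower and 2 or 0.0161% higher in Scap-/-). At an unadjusted p under 0.05, limma gave 3 of the 5 genes (Saa4, Fetub and Steap4), beside 7.74% of all probe sets. All 5 differences were under 1.5-fold.

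Saa4 read 8.44 and 8.09 in Scap-/-, against 8.97 and 8.65 in wild type. Both Scap-/- arrays were below both wild type arrays, by a difference of -0.55 ± 0.16 (95% interval -0.89 to -0.20, limma adjusted p = 0.416). Fetub read 9.92 and 9.69 in Scap-/-, against 10.24 and 10.05 in wild type, a difference of -0.34 ± 0.13 (interval -0.63 to -0.04, limma adjusted p = 0.619). Itih4 read 11.67 and 11.13 in Scap-/-, against 11.71 and 11.70 in wild type. It differed by -0.31 ± 0.26 (interval -0.88 to 0.26, limma adjusted p = 0.754), with its lowest value on the second Scap-/- array.

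Steap4 was the 1 gene with a higher level in Scap-/-. It read 10.37 and 10.19 in Scap-/-, against 10.08 and 9.79 in wild type, a difference of 0.34 ± 0.15 (interval 0.01 to 0.68, limma adjusted p = 0.642). Fgl1 read 8.16 and 7.61 in Scap-/-, against 8.25 and 7.72 in wild type, with arrays that overlapped and a difference of -0.10 ± 0.22 (interval -0.59 to 0.38, limma adjusted p = 0.913). Its sign turned to 0.17 without the second Scap-/- array and to 0.16 without the first wild type array. Fgl1 was picked through these wild type arrays, so its test is not independent of the choice. Lower without overlap were 3 of the 5 genes and 14.4% of all probe sets, and higher without overlap were 1 of 5 and 20%. The acinar markers differed in this study too, at 6.32 to 6.43 in Scap-/-, against 8.02 to 8.23 in wild type. Cpb1 and Cela3b among them fell, and Ctrc (-0.13) did not pass. The hepatocyte markers were at 9.94 to 10.46 in Scap-/-, against 10.45 to 10.83 in wild type, with 0 of 4 called.

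The wild type littermates of the transgenic mice and the injected wild type mice of the Scap study differ in age, diet, injections and breeding, which cannot be told apart. Fgl1 read 9.90 and 9.41 in the littermate wild type pool, against 8.25 and 7.72 in the injected wild type pool. It was 3.17-fold higher, by 1.67 ± 0.22, the second highest difference of all probe sets, and between 1.40 and 1.93 with 1 array left out. It was the 1 gene of 5 that was at least 1.5-fold higher, as were 0.411% of all probe sets, and limma called 0.508% in either direction. Steap4 was higher by 0.58 ± 0.15 and Itih4 by 0.33 ± 0.26. With Fgl1 this made 3 of 5 genes higher without overlap, beside 24.5% of all probe sets. Saa4 differed by -0.23 ± 0.16 and Fetub by -0.29 ± 0.13, and with 1 array left out by -0.41 to -0.05 and by -0.43 to -0.15. The acinar markers averaged 8.84 to 9.17 in the littermate pool, against 8.02 to 8.23 in the injected pool. Cela3b among them was higher by the test (3.04-fold, limma adjusted p = 0.00312), and Cpb1 (0.88) and Ctrc (0.15) did not pass. The hepatocyte markers averaged 10.16 to 10.49 in the littermate pool, against 10.45 to 10.83 in the injected pool, with 0 of 4 called. Their part in the values of the 5 genes was not tested.

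Ordered by level, the 5 groups gave a different picture for each gene. For Fgl1 all 3 groups of the transgenic study lay above both groups of the Scap study: TgSREBP-2 (10.03) was highest, then the wild type littermates (9.65), TgSREBP-1a (8.75), the injected wild type pool (7.99) and Scap-/- (7.88). Only the last neighbours in that order overlapped. Saa4 had means between 8.26 and 8.81 in 4 groups, and was 2.42 lower in TgSREBP-1a than in the next group, Scap-/-. Fetub lay between 9.81 and 10.26 in 4 groups and 1.40 lower in TgSREBP-1a than in Scap-/-. Itih4 lay between 11.40 and 12.04 in 4 groups and 0.87 lower in TgSREBP-1a. In Steap4 the order ran from the wild type littermates (10.52) over Scap-/- (10.28) and the injected wild type pool (9.94) to TgSREBP-1a (9.74) and TgSREBP-2 (9.62). TgSREBP-1a overlapped with the injected wild type pool and with TgSREBP-2, and the other neighbours did not overlap.

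Over the 10 arrays, Saa4, Itih4 and Fetub went together, and Fgl1 and Steap4 did not go with them. Pearson's r of log2 levels was 0.95 for Saa4 with Fetub, 0.87 for Itih4 with Fetub and 0.85 for Saa4 with Itih4. It was 0.43 for Steap4 with either Saa4 or Itih4, 0.22 for Steap4 with Fetub, and between -0.08 and 0.40 for Fgl1 with each of the others. These are descriptions over 10 arrays of 5 pools, in which the TgSREBP-1a pool supplies much of the range and duplicates share their RNA.

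The genes most like each one were sought among 262 probe sets with 1 symbol, a mean level at or above the median and a range of at least 1 over the group means. Saa4 was closest to C8a, a chain of the complement component that forms membrane pores (r = 0.985), then to Cyp4f14, a fatty acid and leukotriene hydroxylase (0.982), and Cmah, which makes a sialic acid (0.982). C8a was closest to Fetub as well (0.968), followed by Saa4 (0.952) and Crot, the peroxisomal carnitine octanoyltransferase (0.927). Itih4 was closest to Rdh16f2 of the retinol dehydrogenase family (0.917), Oaf (0.911) and the epidermal growth factor receptor gene Egfr (0.897). Steap4 was closest to Moxd1 (0.88), the complement gene C6 (0.865) and Gm4952 (0.693). C6 has 3 probe sets and Gm4952 has 2, of which 1 each gave these values, and that of C6 has the suffix _f_at.

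Fgl1 was closest to the glutathione transferase Gstp3 (0.96), the circadian repressor gene Nr1d2 (0.933) and Tifa, an adaptor of NF-kB signalling (0.927). Gstp3 averaged 9.34 in TgSREBP-1a, 10.78 in TgSREBP-2 and 10.74 in their wild type pool, and 7.47 in Scap-/- and 7.63 in its wild type pool. Nr1d2 averaged 7.05 in TgSREBP-1a, 7.71 in TgSREBP-2 and 7.01 in their wild type pool, and 5.79 in Scap-/- and 5.96 in its wild type pool. As with Fgl1, both groups of the Scap study were lower than all 3 groups of the transgenic study for each of these 2 genes.

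**Figure D3:**
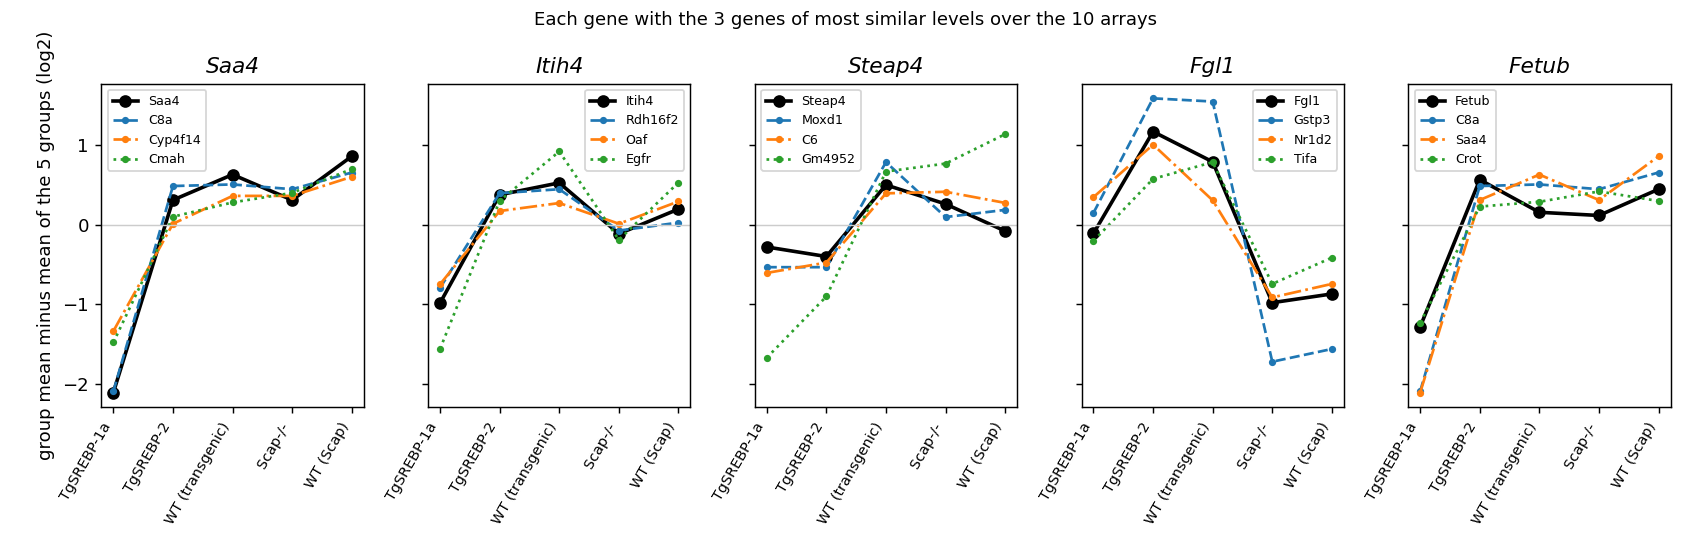
Group means of each gene (black) and of the 3 genes with the highest Pearson r over the 10 arrays (coloured), each minus its own mean over the 5 groups, on the log2 scale. Saa4 and C8a drop together in TgSREBP-1a, and Fgl1, Gstp3, Nr1d2 and Tifa are lower in both groups of the Scap study than in the transgenic study's groups.

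The wider pathways were followed through lists of genes, of which a small part had a probe set with 1 symbol and counts as measured here. Of 52 acute phase genes 7 were measured, namely Saa4, Itih4, Steap4, Fgl1, Spp2, the metallothionein gene Mt1 and the transferrin gene Trf. Among the 3 that are not described above, 1 rose in TgSREBP-1a and 0 fell, where 1.36% of all probe sets were called higher and 0.814% lower. The riser was Spp2, a secreted phosphoprotein related to the cystatins. Spp2 read 9.36 and 8.95 in TgSREBP-1a, against 8.28 and 7.97 in wild type, a rise of 1.03 ± 0.19 (2.04-fold, limma adjusted p = 0.0154). The call was lost without the first TgSREBP-1a array or either wild type array. Against TgSREBP-2, the Spp2 level in TgSREBP-1a was higher by 0.90 ± 0.19 (limma adjusted p = 0.0408), a call that was lost without any 1 of the 4 arrays. Mt1 differed by -0.17 and Trf by 0.13 between TgSREBP-1a and wild type. The 3 genes had 0 calls in TgSREBP-2 and 0 in Scap-/-, beside 0.5% and 0.274% of all probe sets. In either comparison limma gave 0 of the 3 at an unadjusted p under 0.05, beside 7.92% and 7.74% of all probe sets. At that threshold it gave 1 in TgSREBP-1a, 2 between the transgenic pools and 2 between the wild type pools. Of all probe sets 10.3%, 14.7% and 9.7% passed it in these 3 comparisons, in the same order.

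Of 39 hepatokine genes 8 were measured. Besides Fetub and Fgl1 these were Enho, Igf1, Angptl6, Gpnmb, Fst and Hjv. Of these 6, 1 fell in TgSREBP-1a and 0 rose, where 0.814% of all probe sets were called lower and 1.36% higher. Limma called 0 in TgSREBP-2 and 0 in Scap-/-, beside 0.5% and 0.274% of all probe sets. At an unadjusted p under 0.05, limma gave 3 of the 6 in TgSREBP-1a, 0 in TgSREBP-2 and 1 in Scap-/-. It gave 3 between the transgenic pools and 3 between the wild type pools. Of all probe sets 10.3%, 7.92%, 7.74%, 14.7% and 9.7% passed that threshold, in the same order. Enho encodes adropin, a secreted peptide linked to energy balance. It read 6.11 and 6.35 in TgSREBP-1a, against 7.33 and 7.02 in wild type, and fell by 0.94 ± 0.15 (limma adjusted p = 0.00638). That call was lost without the first TgSREBP-1a array or the first wild type array. Enho was also lower in TgSREBP-1a than in TgSREBP-2, at 7.43 and 7.22, with a difference of -1.09 ± 0.15 (limma adjusted p = 0.00297), a call that was lost without the first TgSREBP-1a array. In Scap-/- it read 8.25 and 7.99, against 7.66 and 7.45 in wild type, a difference of 0.57 ± 0.15 that did not pass (limma adjusted p = 0.35). Igf1, insulin-like growth factor 1, differed by -0.56 ± 0.23 in TgSREBP-1a and -0.48 ± 0.23 in Scap-/- and did not pass in either. Its second, dimmer probe set differed by 0.17 in TgSREBP-1a and -0.15 in Scap-/-.

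Relatives of the 5 genes were measured in small part. Of 28 listed members of the ITIH, SAA, STEAP, fibrinogen-domain and cystatin families, 6 were measured (Itih5, Steap1, Steap2, Steap3, Fibcd1 and Cst6). No SAA gene was among them. Limma gave 0 calls and 0 at an unadjusted p under 0.05 in each of the 5 comparisons. It called 1.36% of all probe sets higher and 0.814% lower in TgSREBP-1a, 0.5% in TgSREBP-2 and 0.274% in Scap-/-. Between the transgenic pools it called 1.86%, and between the wild type pools 0.508%. At the unadjusted threshold 10.3%, 7.92%, 7.74%, 14.7% and 9.7% passed, in the same order. With 6 genes nothing is read from these counts, and Itih5 and Cst6 read below the array medians in wild type. Steap1 differed by -0.05 and Steap3 by -0.12 between TgSREBP-1a and wild type, and by 0.07 and -0.08 between TgSREBP-2 and wild type.

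Genes of the cytokine pathways were also measured in small part. Of 45 listed genes of interleukin-6, interleukin-1 and tumour necrosis factor signalling, 10 were measured and 0 passed in any of the 5 comparisons. These were Tyk2, Socs2, Socs3, Irak2, Nfkbiz, Ikbkb, Ikbkg, Ptpn11, Map3k7 and Tab1, with no cytokine, receptor or STAT gene among them. Limma called 1.36% of all probe sets higher and 0.814% lower in TgSREBP-1a, and 0.5% in TgSREBP-2. It called 1.86% between the transgenic pools, 0.274% in Scap-/- and 0.508% between the wild type pools. With shares this small nothing is read from the 0 calls. At an unadjusted p under 0.05, limma gave 1 of the 10 in TgSREBP-1a, 1 in TgSREBP-2, 3 between the transgenic pools, 0 in Scap-/- and 1 between the wild type pools. Of all probe sets 10.3%, 7.92%, 14.7%, 7.74% and 9.7% passed the same threshold in these comparisons, in the same order. Socs3, the feedback inhibitor that STAT3 induces, read 7.55 and 7.57 in TgSREBP-1a, against 7.46 and 7.50 in wild type, and 7.43 and 7.51 in Scap-/-, against 7.39 and 7.37 in wild type. Its differences were 0.08 ± 0.14 and 0.09 ± 0.14. Ikbkg, a subunit of the kinase complex that activates NF-kB, differed by -0.37 ± 0.10 between TgSREBP-1a and wild type (limma adjusted p = 0.123) and by -0.53 ± 0.10 between the transgenic pools (limma adjusted p = 0.0265), which is under 1.5-fold. Ptpn11 differed by 0.59 ± 0.27 and Socs2 by -0.19 ± 0.13 in TgSREBP-1a, and neither passed.

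Of 25 listed transcription factors of liver acute phase genes 11 were measured, and 1 fell in TgSREBP-1a, with 0 risen. Of all probe sets 0.814% were called lower there and 1.36% higher. Ppara, the fatty acid sensor that also restrains acute phase genes, read 6.27 and 6.20 in TgSREBP-1a, against 7.62 and 7.15 in wild type, and fell by 1.15 ± 0.19 (limma adjusted p = 0.00866). The call was lost without either TgSREBP-1a array or the first wild type array. Hnf4a, a main regulator of hepatocyte genes, differed by -0.42 ± 0.19 in TgSREBP-1a, -0.24 ± 0.19 in TgSREBP-2 and -0.19 ± 0.19 in Scap-/-. Rxra differed by -0.51 ± 0.19 in TgSREBP-1a and Klf15 by -0.42 ± 0.17 in Scap-/-, and neither passed. In TgSREBP-2 and in Scap-/- limma called 0 of the 11, beside 0.5% and 0.274% of all probe sets. In each of these, limma gave 1 of the 11 at an unadjusted p under 0.05. At that threshold it gave 4 in TgSREBP-1a, 4 between the transgenic pools and 1 between the wild type pools. Of all probe sets 7.92% passed it in TgSREBP-2, 7.74% in Scap-/-, 10.3% in TgSREBP-1a, 14.7% between the transgenic pools and 9.7% between the wild type pools. The median difference of the 11 was -0.18 in TgSREBP-1a and -0.20 in TgSREBP-2, beside -0.02 over all probe sets in each, and -0.19 in Scap-/-, beside 0.02.

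**Figure D4:**
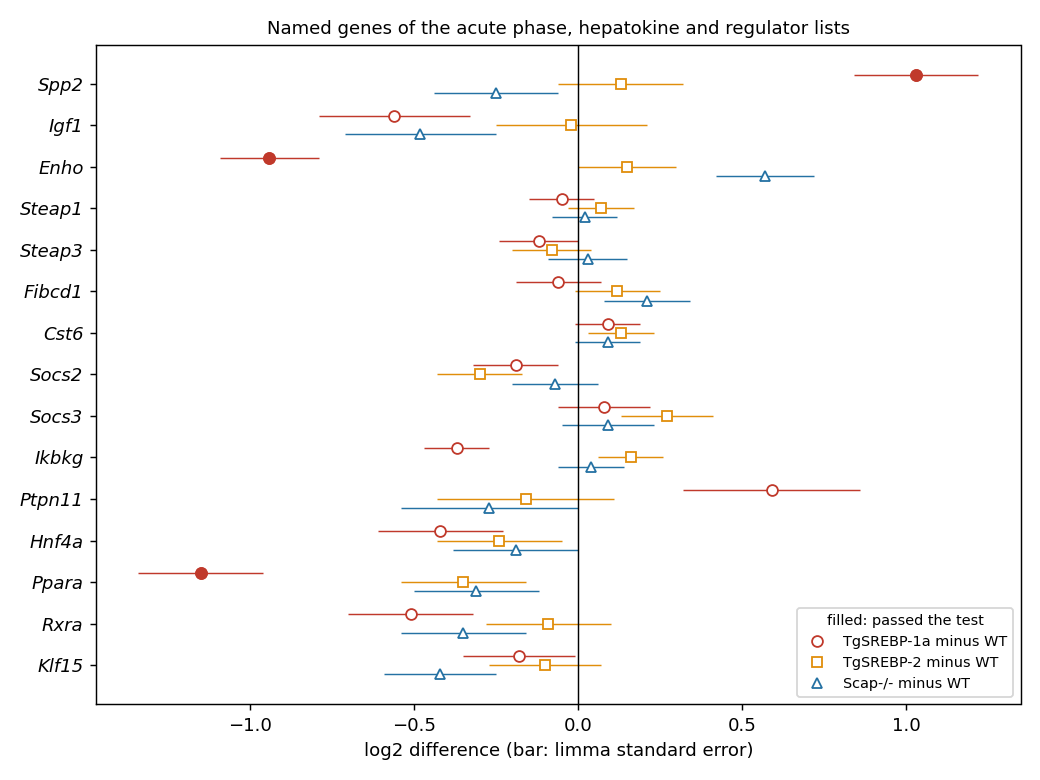
Log2 differences of named genes from the 5 pathway lists in 3 comparisons against wild type, with limma standard errors as bars and filled symbols where the test was passed (n = 2 arrays per group). Spp2 lies right of 0 and Enho and Ppara left of 0 in TgSREBP-1a, and no symbol is filled for TgSREBP-2 or Scap-/-.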

How the data were processed

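Liver RNA pools of 5 mice per group were measured on 10 Affymetrix MG_U74Bv2 arrays, 2 per pool. The deposited values are log2 expression values per probe set, made with RMA per the submitters' processing notes, while the series' design text names Microarray Suite. RMA equalises the distributions of arrays at the level of probes, so a shift common to all genes would not be seen, and it gives no detection call. The deposited probe set values were not fully equal in distribution, since a second quantile normalization still moved values, as given for Itih4 below. Versions and a genome build are not given in the sources used here. Of 12477 probe sets, 66 controls were left out. Symbols came from the platform annotation, and a RefSeq table changed 0 of them.

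All 10 arrays entered 1 linear model with a mean for each group, by limma 3.58.1 in R 4.3.3 (lmFit, eBayes, two-sided, Benjamini-Hochberg over 12411 probe sets), so all groups shared 1 spread. With 2 arrays per group the number of arrays limits the precision, and the median standard error of a difference was 0.1151. The procedure was tested on simulated data. A gene was represented by its brightest probe set, and in the search for similar genes by its most similar one.

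The members, gene lists and motifs were chosen with earlier results of these data known. Named were the 5 genes, all list genes called in any comparison, the largest differences up to 4 per list where fewer than 4 were called, and the 3 most similar genes of each member. A few of them appear only in the plot of list genes. Alternatives were leaving out arrays, fitting 4 arrays, a replicate block, a variance trend, a brightness filter, other scalings, gene means over probe sets and no minimum fold.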

Additional observations from a re-analysis of the deposited data

How the results depend on the processing

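None of the 5 genes passed the test in Scap-/- under any alternative run, with adjusted p-values from 0.0858 (Saa4, replicate block) upward, and the signs of Saa4, Itih4, Steap4 and Fetub held. With 1 array left out the Scap-/- difference ranged from -0.72 to -0.37 for Saa4, -0.58 to -0.04 for Itih4, 0.20 to 0.49 for Steap4, -0.45 to -0.22 for Fetub and -0.38 to 0.17 for Fgl1, which turned to 0.17 and 0.16. A second quantile normalization brought Itih4 to -0.11 there, and the cause was not tested. Each gene has 1 probe set, so the mean over probe sets is the same value. The counts of calls over all probe sets moved more. For TgSREBP-1a the 270 calls became 352 with only the 4 arrays of the comparison and 335 with the replicate block. The 34 calls in Scap-/- ranged from 10 to 68 with 1 array left out, and were 5 with only the 4 arrays of the comparison and 91 with the replicate block. The 270 calls in TgSREBP-1a ranged from 142 to 193 with 1 array left out. The 62 in TgSREBP-2 ranged from 25 to 124 and were 101 with the replicate block. The 231 between the transgenic pools ranged from 87 to 384. The 63 between the wild type pools ranged from 14 to 120, and were 13 with only 4 arrays and 145 with the replicate block. Hybridisation numbers are shared by all groups, but no label says that a number marks a batch. First-minus-second differences of TgSREBP-2 correlated between -0.167 and 0.113 with those of the other groups, which correlated with each other between 0.343 and 0.598. Without an array, the lone array of its group is taken to vary like the others.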

Other observations

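The first hybridisation read higher than the second for 24 of the 25 gene and pool combinations of the 5 genes, Saa4 in TgSREBP-1a being the exception by 0.03. Of all probe sets, between 45.4% and 53.5% read higher on the first array of a pool, and of the 856 with a mean level of at least 8, between 58.6% and 67.4%. Saa4, with 5.84 in TgSREBP-1a, had a mean below that level and is not among the 856. The widest gaps were 0.88 for Itih4 in TgSREBP-2, and 0.55 for Fgl1 and 0.54 for Itih4 in Scap-/-.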
